A study of Rattus norvegicus with 10 samples.

Results

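MHC class II genes and their regulator Ciita were followed in mammary tumours of rats whose mothers had eaten a Western-style or a control diet. The members were 10 genes fixed by name: Ciita, Cd74, RT1-Ba, RT1-Bb, RT1-Da, RT1-DMa, RT1-DMb, RT1-DOb, Ctss and Ctsh, out of 36061 genes or transcripts with a probe. Probes were matched to genes through their transcript identifiers in RefSeq, and 12 of 41012 probes matched 9 of the 10 members. RT1-DMb had no matched probe. The probe of RT1-Ba was not well above background on any array, so 8 members were tested.

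Each tumour was hybridised to 1 one-colour (Cy3) Agilent whole rat genome array, with 200 ng of total RNA. The WD group was 5 tumours (WD1 to WD5) from daughters of Sprague-Dawley dams fed Western-style diet, high in fat and low in fibre and oligoelements, during gestational days 12 to 20 and postnatal days 1 to 21. The CD group was 5 tumours (CD1 to CD5) from daughters of dams fed control diet over the same days. Daughters of both groups were female, were weaned onto control diet, received 1 intraperitoneal dose of 50 mg/kg of the carcinogen N-methyl-N-nitrosourea at 3 weeks and were 110 days old when the tubular or papillary tumours were taken. Nothing in the labels ties a tumour to its dam or litter, and p-values here measure only the spread between these tumours. The comparison asks whether the diet of the mother goes with a different level of these genes in the tumour of the daughter.

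MHC class II molecules are cell-surface pairs of an alpha and a beta chain that present peptides from taken-up protein to CD4+ T cells. They are made mainly by dendritic cells, B cells and macrophages, and other cells can be induced to make them by interferon gamma. Ciita does not bind DNA itself: it is recruited to a conserved set of promoter elements, named W or S, X and Y boxes, by the RFX, CREB and NF-Y factors that bind there. Newly made chains pair with the invariant chain, encoded by Cd74, which blocks the groove until cathepsins such as cathepsin S cut it away. The DM molecule then exchanges the remaining fragment for peptide and is held back by the DO molecule. In the rat this locus is called RT1, where RT1-B and RT1-D are the presenting chains.

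The promoters of the genes below are shown because the letters of the NF-Y element, the Y box, can be read in them. Each window is from RefSeq on GRCr8, 5′ to 3′ on the strand of the gene, within the 250 bases before the annotated start. Capitals mark GCAAC and GATTGG, or in Cd74 CCAAT, the same NF-Y core on the other strand.
RT1-Ba, alpha chain, chr20:4576961-4577030, plus strand: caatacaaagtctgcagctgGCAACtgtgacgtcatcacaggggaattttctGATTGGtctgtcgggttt
RT1-Bb, beta chain, chr20:4604163-4604232, minus strand: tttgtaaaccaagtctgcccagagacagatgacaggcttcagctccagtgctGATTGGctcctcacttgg
RT1-Da, alpha chain, chr20:4515313-4515382, plus strand: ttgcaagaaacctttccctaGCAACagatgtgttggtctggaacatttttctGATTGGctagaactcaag
RT1-DMa, DM alpha chain, chr20:4712383-4712452, minus strand: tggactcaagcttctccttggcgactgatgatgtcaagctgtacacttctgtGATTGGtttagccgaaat
RT1-DOb, DO beta chain, chr20:4627590-4627659, minus strand: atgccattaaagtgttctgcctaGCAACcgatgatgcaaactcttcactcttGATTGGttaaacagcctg
RT1-Db1, beta chain paired with RT1-Da and no member, chr20:4560226-4560295, minus strand: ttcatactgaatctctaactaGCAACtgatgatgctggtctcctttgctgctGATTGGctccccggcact
Cd74, invariant chain, chr18:56526965-56527033, plus strand: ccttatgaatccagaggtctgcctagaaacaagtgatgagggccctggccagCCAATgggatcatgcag

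GATTGG, on either strand, was in the promoters of 5 of the 8 members that the RefSeq table holds and in 14.8% of its 33469 promoters. The shorter ATTGG was in 7 of the 8 members and in 37.5% of all promoters. The arrangement seen above, GCAAC followed after 15 to 45 bases by GATTGG, was in RT1-Ba, RT1-Da and RT1-DOb and in 0.499% of all promoters. In those members 24 or 27 bases lay between the pair. It was also in 4 of 4 other class II loci, RT1-Db1, RT1-Db2, RT1-DOa and RT1-Ha. The motifs were chosen with these sequences in view, GATTGG contains ATTGG, and a match is a description of letters, not of binding. Ctsh, a cathepsin gene outside the locus, held none of these motifs, and Ciita and RT1-DMb are not shown.

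Levels are log2 of the spot intensity minus the 75th percentile of all measuring spots on the array, so 0 is the brightness of that percentile and 1 unit is a factor of 2. The probe of highest mean stood for each gene, and the level of 1 probe cannot be set against that of another. Across the whole table, limma (a linear model with moderated variance) with Benjamini-Hochberg adjustment called 0 of 16764 genes at an adjusted p under 0.05, which is 0% of those tested, and the lowest adjusted p was 0.136. An unadjusted p under 0.05 was found for 2599 genes, which is 15.5%. The arrays lay on 3 slides, each holding both diets. Their 75th percentile of intensity ran from 72.8 to 170 in WD tumours and from 85.1 to 226 in CD tumours. CD1, CD2, CD4 and CD5 (188 to 226) were brighter than every WD array, and CD3 (85.1) was not. Array brightness thus largely went with diet, and their parts cannot be fully told apart. The number of probes well above background was 16684 to 21906 per array, and no member probe was saturated.

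Most class II genes had a higher mean in WD tumours than in CD tumours, and none passed the adjusted test. Of the 8 tested members 7 had a positive difference (WD minus CD), where 51.4% of all genes did, and the median of the members was 0.67, where that of all genes was 0.01. The differences ran from 1.46 for RT1-DOb to -0.60 for Ctsh. At an unadjusted p under 0.05 there were 3 members, RT1-DOb and Ciita (higher) and Ctsh (lower), beside the 15.5% of all genes. RT1-DOb and Ciita passed the filter on dim probes largely through the WD arrays, so their part in these counts is no support. Of the 6 members well above background on all 10 arrays, 5 had a positive difference, with a median of 0.51, and 1, Ctsh, had an unadjusted p under 0.05, where 16.2% of genes did under that filter. In bulk tumours, fewer cells of a type and less RNA per cell cannot be told apart. WD2 was the lowest of the 5 WD tumours for 7 of the 8 members and the lowest of all 10 tumours for 5 of them, so values are also given without it.

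**Figure D1:**
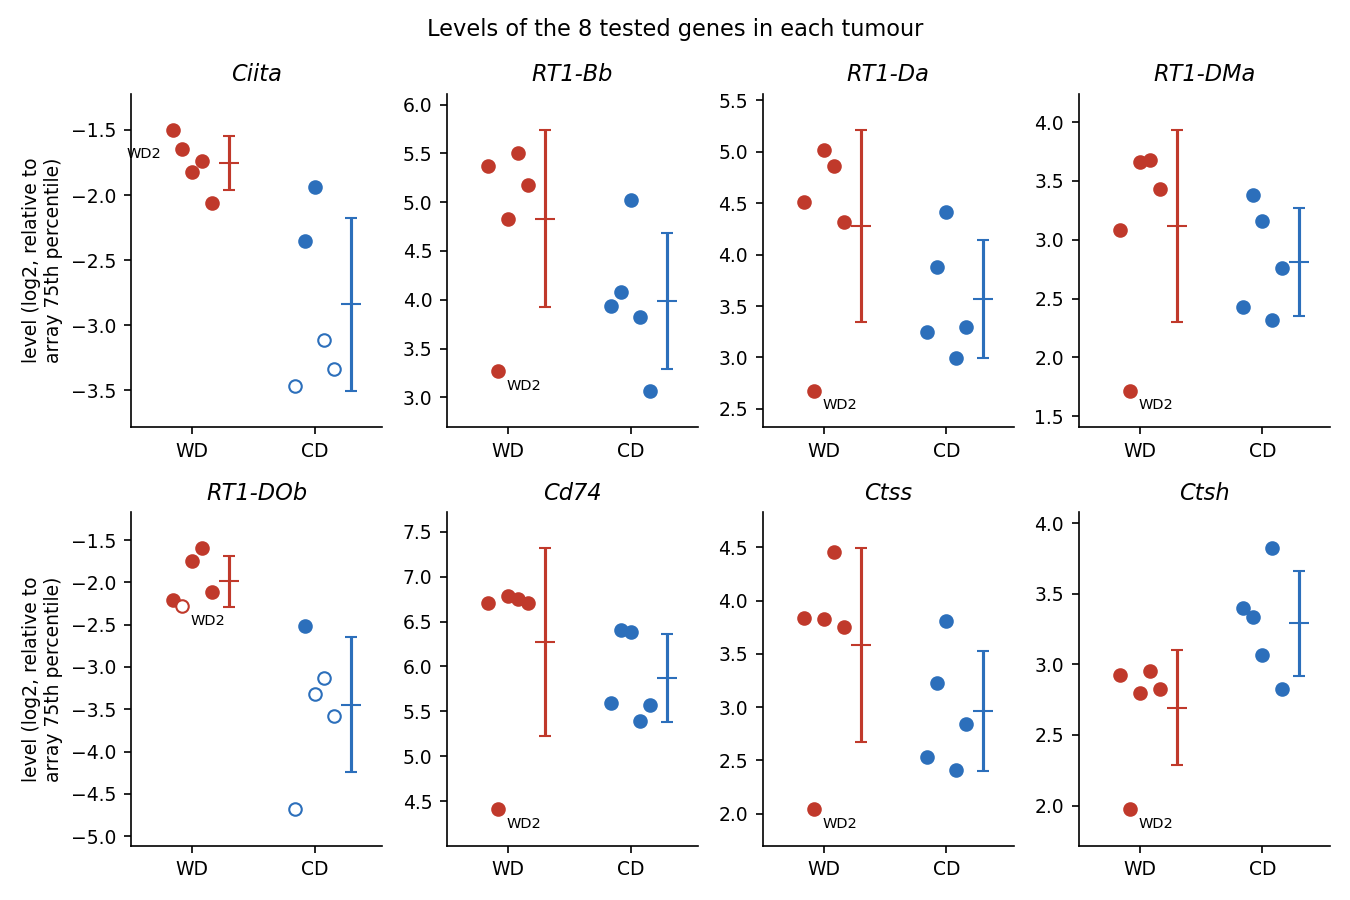
Levels (log2, relative to the 75th percentile of the array) of the 8 tested genes in each tumour, with WD on the left and CD on the right. Points are tumours, open where the probe was not well above background, and bars are the mean and SD. RT1-DOb is the 1 gene whose groups do not overlap, and the labelled WD2 point is lowest of the WD group in 7 panels.

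Ciita, the co-activator on which class II transcription depends, was read by 1 probe (A_44_P435782). Its level was -1.50, -1.65, -1.82, -1.74 and -2.06 in WD1 to WD5, and -3.47, -2.35, -1.94, -3.11 and -3.34 in CD1 to CD5. The WD tumours lay within a narrow band and the groups overlapped by 1 pair: CD3 was above WD5. The difference was 1.09 ± 0.28 (SE, n = 5 each), which is 2.12-fold higher, with an adjusted p of 0.181 in limma. The probe was well above background on 5 of 5 WD arrays and on 2 of 5 CD arrays (CD2 and CD3), so the size is uncertain. With normexp background correction the difference was 0.29. That correction adds an offset of 50 to each spot, which draws dim probes together, so 0.29 is no measure of the size. Under that correction 0 of the 8 members and 2.94% of all genes had an unadjusted p under 0.05 in limma.

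Ciita was a dim probe, and dim probes as a whole were shifted between the groups. Without the filter on dim probes, 36022 genes had a median difference of 0.34, and 72.6% were positive. Over the 10 tumours the Ciita level had a Pearson correlation of -0.793 with array brightness (log2 of the 75th percentile), given as a description. With brightness as a covariate the Ciita difference was 0.65 (adjusted p = 0.856 in limma), and 1 member, RT1-DOb, and 5.73% of all genes had an unadjusted p under 0.05.

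RT1-DOb encodes the beta chain of DO, the partner that holds DM back and is known mainly from B cells and dendritic cells. Its level was -2.21, -2.28, -1.74, -1.60 and -2.11 in WD1 to WD5, and -4.68, -2.52, -3.32, -3.13 and -3.58 in CD1 to CD5. Every WD tumour was above every CD tumour, which held for 1 of the 8 members. Groups did not overlap in that direction for 1.34% of all genes and in either direction for 3.64%. The probe was well above background on 4 of 5 WD arrays and on 1 of 5 CD arrays (CD2), so 4 of the 5 CD values are not measured levels, and nothing is read from these shares. The difference of 1.46 ± 0.34 (SE, n = 5 each) is 2.75-fold, of uncertain size for the same reason, with an adjusted p of 0.181 in limma. With normexp background correction, whose offset draws dim probes together, the difference was 0.25. With brightness as a covariate it was 1.38 (adjusted p = 0.856 in limma).

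DM, the molecule that DO restrains, was read through its alpha chain gene RT1-DMa. Its level was 3.08, 1.72, 3.66, 3.68 and 3.44 in WD1 to WD5, and 2.43, 3.38, 3.16, 2.32 and 2.76 in CD1 to CD5. The groups overlapped widely, with WD2 below all others. The difference was 0.31 ± 0.37 (SE, n = 5 each; adjusted p = 0.714 in limma), and 0.66 without WD2.

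The chains that present peptide were RT1-Bb and RT1-Da among the members. RT1-Bb, the beta chain of RT1-B, had levels of 5.38, 3.27, 4.83, 5.50 and 5.18 in WD1 to WD5, and 3.94, 4.08, 5.02, 3.82 and 3.07 in CD1 to CD5 on its brighter probe (A_44_P552452). Of the WD tumours 4 lay above the CD mean, and WD2 lay below 4 of the 5 CD tumours. The difference was 0.85 ± 0.45 (SE, n = 5 each), 1.80-fold, with an adjusted p of 0.383 in limma, and 1.24 without WD2.

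RT1-Da, the alpha chain of RT1-D, had 4 of the 5 WD tumours above the CD mean. Its level was 4.51, 2.68, 5.02, 4.86 and 4.32 in WD1 to WD5, and 3.25, 3.88, 4.42, 2.99 and 3.30 in CD1 to CD5. WD2 was again the lowest, and CD3 lay within the range of the other WD tumours. The difference was 0.71 ± 0.43 (SE, n = 5 each), 1.64-fold, with an adjusted p of 0.437 in limma, and 1.11 without WD2.

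The beta chain loci that pair with RT1-Da were outside the members and had similar differences. RT1-Db1 had a level of 4.41 ± 1.05 in WD tumours and 3.60 ± 0.61 in CD tumours (SD, n = 5 each), a difference of 0.81 with an adjusted p of 0.424 in limma. RT1-Db2 had a difference of 0.79 (adjusted p = 0.372 in limma). Probes of such related loci may share signal, which was not tested. RT1-DOa was well above background on 1 array, CD3, and RT1-Ha had no matched probe. RT1-Ba, the alpha chain of RT1-B, was well above background on 0 of 10 arrays although the RT1-Bb probe was bright on all of them, and no fold is given for it.

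The pair of RT1-Bb probes did not follow each other across tumours. The dimmer probe (A_44_P500803) had levels of 1.46, -0.60, 3.31, 1.39 and 1.51 in WD1 to WD5, and 0.07, 3.07, 0.48, 0.16 and 2.14 in CD1 to CD5. Its correlation with the brighter probe was 0.238 over the 10 tumours. The gap between them (brighter minus dimmer) was 1.52 in WD3, 1.01 in CD2 and 0.93 in CD5, and between 3.66 and 4.55 in the other 7 tumours. The small gaps thus fell in both diet groups, and no tumour lay between 1.52 and 3.66. On the dimmer probe the difference between the diets was 0.23, and on the brighter one 0.85. The pair of RT1-Da probes had a correlation of 0.923 and a gap of 2.34 to 3.40, and the pair of Ctss probes had a correlation of 0.997 and a gap of 0.37 to 0.58.

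**Figure D2:**
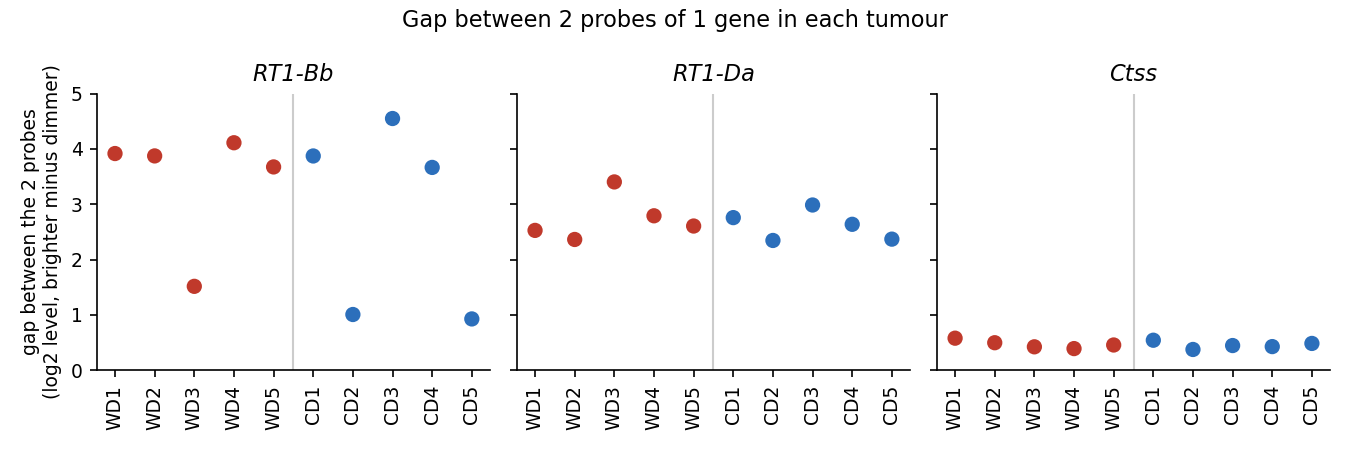
Gap in log2 level between the brighter and the dimmer probe of RT1-Bb, RT1-Da and Ctss (the vertical axis) in each of the 10 tumours, WD on the left of the line and CD on the right. WD3, CD2 and CD5 stand apart at 1.52, 1.01 and 0.93 for RT1-Bb, and no tumour stands apart in this way for Ctss.

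Cd74, the invariant chain that fills the groove of new class II molecules, was well above background on all 10 arrays. Its level was 6.70, 4.41, 6.79, 6.75 and 6.71 in WD1 to WD5, and 5.60, 6.41, 6.38, 5.39 and 5.57 in CD1 to CD5. WD1, WD3, WD4 and WD5 sat between 6.70 and 6.79, above every CD tumour, and WD2 lay below every CD tumour. The difference was 0.40 ± 0.45 (SE, n = 5 each), 1.32-fold, with an adjusted p of 0.686 in limma. Without WD2 it was 0.87 (adjusted p = 0.187 in limma).

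The cathepsins of the list went in opposite directions. Ctss, cathepsin S, makes the last cuts of the invariant chain in dendritic cells and B cells. Its level was 3.84, 2.04, 3.83, 4.45 and 3.75 in WD1 to WD5, and 2.53, 3.22, 3.81, 2.41 and 2.84 in CD1 to CD5 (A_44_P1004731). The groups overlapped at CD3, which lay among the WD tumours, and at WD2, which was lowest of all. The difference was 0.62 ± 0.42 (SE, n = 5 each; adjusted p = 0.490 in limma), and 1.00 without WD2.

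Ctsh, cathepsin H, is an aminopeptidase of lysosomes with a broad expression, and it was the 1 member with a negative difference. Its level was 2.92, 1.98, 2.79, 2.95 and 2.83 in WD1 to WD5, and 3.40, 3.33, 3.07, 3.82 and 2.83 in CD1 to CD5. All 5 WD tumours lay below the CD mean, and CD5 overlapped with them. The difference was -0.60 ± 0.24 (SE, n = 5 each), 1.51-fold lower, with an adjusted p of 0.267 in limma, and it was -0.42 without WD2.

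**Figure D3:**
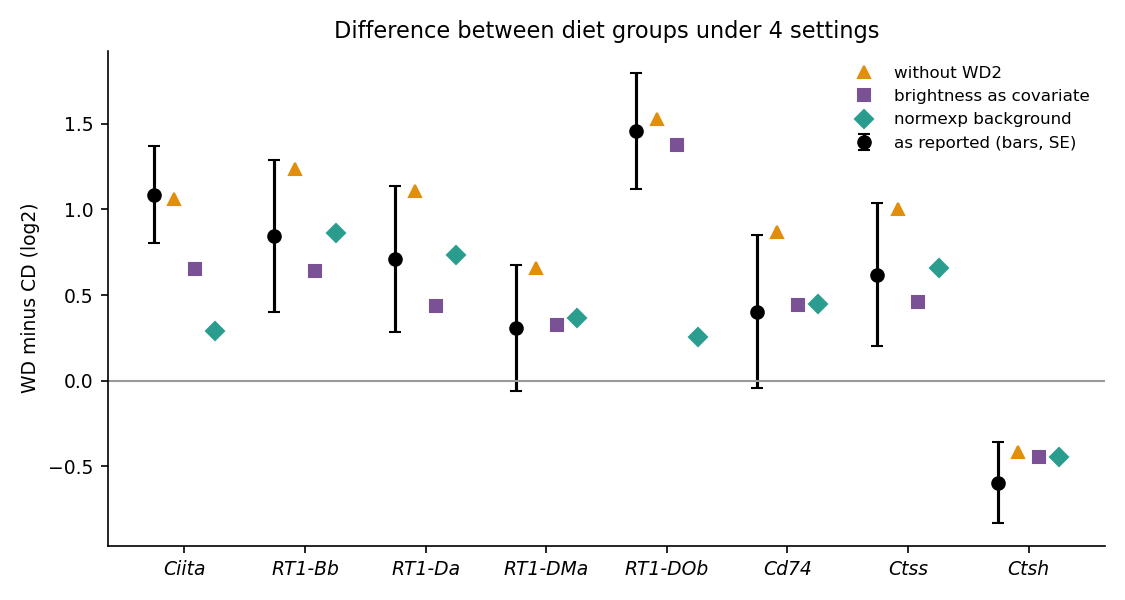
Difference between WD and CD (log2, WD minus CD, on the vertical axis) for the 8 tested genes as reported with its SE (black), without WD2 (orange), with array brightness as a covariate (purple) and with normexp background correction (green). The normexp values of Ciita and RT1-DOb are 0.29 and 0.25, against 1.09 and 1.46 as reported, while those of the 6 brighter genes lie near the reported ones.

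The spread of the members within a diet group was above that of most genes. The median residual SD within groups was 0.71 for the 8 members and 0.34 for all genes tested, and each member was above the median of all genes. Cd74 had a residual SD of 0.81, above 92.8% of genes, and 0.37 without WD2. Without WD2 the median was 0.48 for the members and 0.33 for all genes, and 7 of 8 members were above the median of all genes. WD2 was singled out because it was low for these same members, so nothing is read from a smaller spread without it. The SD was higher without WD2 for Ciita (0.52 against 0.49) and RT1-DOb (0.63 against 0.60), and lower for the other members. Ctsh had the lowest of the members, 0.39, above 59.8% of genes.

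Without WD2, 7 of the 8 members had an unadjusted p under 0.05, all of them higher in WD. Of all genes 14.4% had such a p in either direction, and the median of the members was 1.03. WD2 was left out because it was low for these same members, and the dim Ciita and RT1-DOb are among the 7. Nothing is thus read from this count. No member passed the adjusted test without WD2 either (adjusted p 0.164 to 0.371 in limma). Within slide 1, which held WD1, WD2 and CD2, the median difference of the members was -0.28. Within slide 2 (WD3, WD4, CD3 and CD5) it was 0.84, and within slide 3 (WD5, CD1 and CD4) 1.22. Ciita, RT1-DOb and the brighter RT1-Bb probe were higher in WD within every slide, and Ctsh was lower within every slide. Ciita and RT1-DOb were mostly not well above background in CD tumours. The dimmer RT1-Bb probe was lower in WD within slide 1, at 1.46 in WD1 and -0.60 in WD2 against 3.07 in CD2. Cd74, RT1-Da, RT1-DMa and Ctss had negative differences of -0.85, -0.28, -0.98 and -0.28 within slide 1. With slide as a block in the fit the median was 0.68, with 0 members past the adjusted test and 2 at an unadjusted p under 0.05, where 17.4% of all genes were.

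The Ciita level was set against the levels of the other tested members, the cathepsins included, across the 10 tumours, with 7 correlations and p-values from 100000 permutations of the tumours, two-sided. RT1-DOb had a Pearson r of 0.825 (permutation p = 0.00324, adjusted 0.0227) and a Spearman rho of 0.721 (permutation p = 0.0231, adjusted 0.162). It was the 1 member of 7 past the adjusted threshold for r, and 0 passed for rho. In CD1, CD4 and CD5, the tumours of lowest Ciita, neither probe was well above background, so the low end of this relation is not made of measured levels. RT1-Bb had an r of 0.628 and a rho of 0.539 (adjusted permutation p = 0.136 and 0.252), and RT1-Da an r of 0.582 and a rho of 0.455 (0.136 and 0.268). Ctss had an r of 0.558 and a rho of 0.503 (0.136 and 0.252), Cd74 0.383 and 0.345 (0.307 and 0.385), RT1-DMa 0.360 and 0.248 (0.307 and 0.492), and Ctsh -0.573 and -0.515 (0.136 and 0.252).

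The r of Ciita and RT1-DOb was 0.736 to 0.898 when each tumour was left out in turn (adjusted permutation p 0.00586 to 0.173, exact for 9 tumours). With normexp background correction it was 0.977. That correction adds an offset of 50 to each spot before the percentile of the array is subtracted. Dim probes are drawn together by this, so the value of 0.977 is no support. Without CD1 and CD5, the tumours farthest from the median Ciita level, r was 0.573 (exact permutation p = 0.135, n = 8). With values centred on the diet group it was 0.534 (adjusted exact permutation p = 0.392), and centred on the slide it was 0.784 (adjusted exact permutation p = 0.0162). Both probes were dim in CD tumours, and both levels ran against array brightness, with r of -0.793 for Ciita and -0.539 for RT1-DOb. The part of brightness in the relation was not tested.

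The relation of Ciita with most other members differed with and without WD2. That tumour had a Ciita level within the narrow WD band, -1.65, and the lowest level of all tumours for Cd74, RT1-Da, RT1-DMa, Ctss and Ctsh. Without it, Cd74 had an r of 0.945 with Ciita, RT1-Da 0.927, Ctss 0.918, RT1-Bb 0.905, RT1-DOb 0.826 and RT1-DMa 0.814 (adjusted exact permutation p 0.00251 to 0.0130, n = 9), so 6 of 7 passed. In those 9 tumours the high Ciita levels were mostly those of WD and the low ones those of CD. WD2 was picked out by its levels of these same genes, so these p-values are no support. In CD1, CD4 and CD5, at the low end, the Ciita probe was not well above background. With normexp background correction and WD2 kept, the r of Cd74, RT1-Bb, RT1-Da, RT1-DMa and Ctss with Ciita was negative (-0.404 to -0.221). The parts of brightness and diet in these correlations were not tested.

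**Figure D4:**
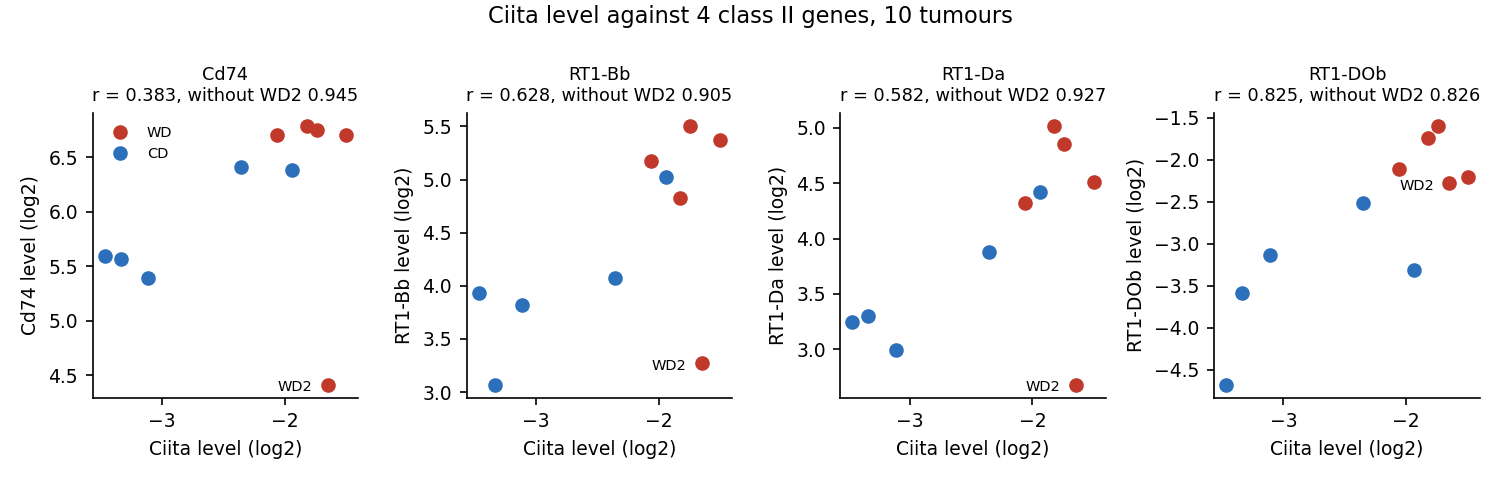
Level of Cd74, RT1-Bb, RT1-Da and RT1-DOb (vertical axes, log2) against the Ciita level (horizontal axes, log2) in 5 WD tumours (red) and 5 CD tumours (blue). WD2 lies at a high Ciita level and a low level of the other gene in the first 3 panels, and r is printed over each panel for all 10 tumours and without WD2.

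Among the members, the correlations of Cd74 with the presenting chains, RT1-DMa and Ctss were high, although the order of the tumours differed between genes. Cd74 had a correlation of 0.959 with RT1-DMa, 0.938 with RT1-Da, 0.929 with Ctss and 0.855 with RT1-Bb over the 10 tumours. RT1-Bb had a correlation of 0.751 with RT1-DMa, and its lowest tumour was CD5, where that of Cd74 was WD2. These RT1-Bb values are those of its brighter probe, and on the dimmer probe the lowest tumour was WD2. Ctsh had a correlation of 0.243 with Cd74. These correlations share arrays, normalisation and diet, and are a description.

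The genes whose levels were most like that of Cd74 over the 10 tumours, of those tested that carry a symbol, were C1qa (r = 0.961), Mmp2 (0.949), C1qc (0.947), Rgcc (0.947) and Igsf7 l1 (0.941). C1qa and C1qc encode chains of complement C1q, which macrophages make, and Mmp2 encodes a gelatinase. The most negative were Rbbp7 (-0.912), Zfp511 (-0.895) and Tcf20 (-0.888). Like Ciita were Il22ra2 (r = 0.926), the gene of a soluble receptor that binds interleukin-22, Tgfbr2 (0.891), LOC690045 (0.882), Mmrn1 (0.882) and Arhgap30 (0.878). All of these genes like Ciita had negative levels in every tumour. The Ciita probe was not well above background in CD1, CD4 and CD5, and its level had a correlation of -0.793 with array brightness. These rankings are a description, and the part of brightness in them was not tested.

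Markers of macrophages, one of the cell types that carry class II, had differences of the same sign as most members. Of 13 macrophage markers 11 were tested and 11 had a positive difference, with a median of 0.62 and 2 at an unadjusted p under 0.05, Laptm5 (0.89) and Mrc1 (0.89), where 7.8% of all genes were higher at that p. Their mean level ran from 1.35 to 3.55 in WD tumours, where WD2 was the lowest, and from 1.83 to 2.69 in CD tumours. The mean macrophage level had a correlation of 0.943 with Cd74, 0.980 with Ctss and 0.486 with Ciita. The part of these cells in the class II differences was not tested.

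Other blood cell markers gave a similar picture where they could be measured. Of 6 pan-leukocyte markers 5 were tested and 4 had a positive difference, with a median of 0.89, and Ptprc, the gene of CD45, averaged 0.14 ± 0.58 in WD tumours and -0.92 ± 0.38 in CD tumours (SD, n = 5 each; adjusted p = 0.181 in limma). Their mean level ran from -0.57 to 0.89 in WD tumours and from -0.63 to -0.04 in CD tumours. Of 10 T cell markers 5 were tested, and all 5 had a positive difference, with a median of 0.96 and 4 at an unadjusted p under 0.05 (Zap70, Cd3g, Cd3e and Cd3d), all higher, where 7.8% of all genes were higher at that p. Their mean level ran from 0.33 to 2.06 in WD tumours and from -0.22 to 0.72 in CD tumours. Cd4, whose product binds class II, was not well above background on any array.

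B cells and dendritic cells, which carry the most class II, were hardly measured. Of 10 B cell markers 7 had a probe and 1 was tested, Blnk, with a difference of 0.04 and a level from -2.17 to 0.34 in WD tumours and from -1.84 to -0.71 in CD tumours. Blk, Cd22 and Cr2 were not well above background on any array, and Cd79b was well above it on 0 WD and 3 CD arrays. Of 11 dendritic cell markers 6 had a probe and 2 were tested. Their mean level ran from 0.04 to 1.69 in WD tumours and from -0.09 to 1.27 in CD tumours. Clec10a had a difference of 1.12 (2.18-fold; adjusted p = 0.284 in limma) and Batf3, a factor of cross-presenting dendritic cells, one of -0.40. Xcr1, Ccr7, Fscn1 and Itgae were not well above background on any array. Of 8 lymph node markers 5 were tested and 4 had a positive difference, with a median of 1.38, a mean level from -0.73 to 0.92 in WD tumours and from -1.69 to 1.11 in CD tumours. Ltb had the smallest p of them, at 2.14-fold higher in WD (adjusted p = 0.186 in limma). Cxcl13, a B cell attractant, came next at 4.47-fold (adjusted p = 0.239 in limma). Its level was -1.28 in WD2 and -0.11 in WD5, within the CD range of -1.70 to 0.26, while WD1, WD3 and WD4 lay above that range. Lyve1 and Glycam1, also in this list, were well above background on 5 arrays each.

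Luminal epithelial markers ran the other way. Of 10 markers 9 were tested, 2 with a positive and 7 with a negative difference, with a median of -0.33. At an unadjusted p under 0.05 there were 4 (Pgr, Esr1, Krt19 and Krt8), all lower, where 7.71% of all genes were lower at that p. Esr1 was well above background on 0 of 5 WD and 5 of 5 CD arrays. It thus passed the filter only through CD, and its part in this count is no support. The mean level of the 9 markers, Esr1 included, ran from 2.63 to 3.22 in WD tumours and from 3.13 to 3.88 in CD tumours. This mean had a correlation of -0.840 with Ciita and -0.472 with Cd74. None of the 5 adipocyte markers with a probe, of 6, was kept by the filter. The part of the epithelial share in the class II differences was not tested.

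**Figure D5:**
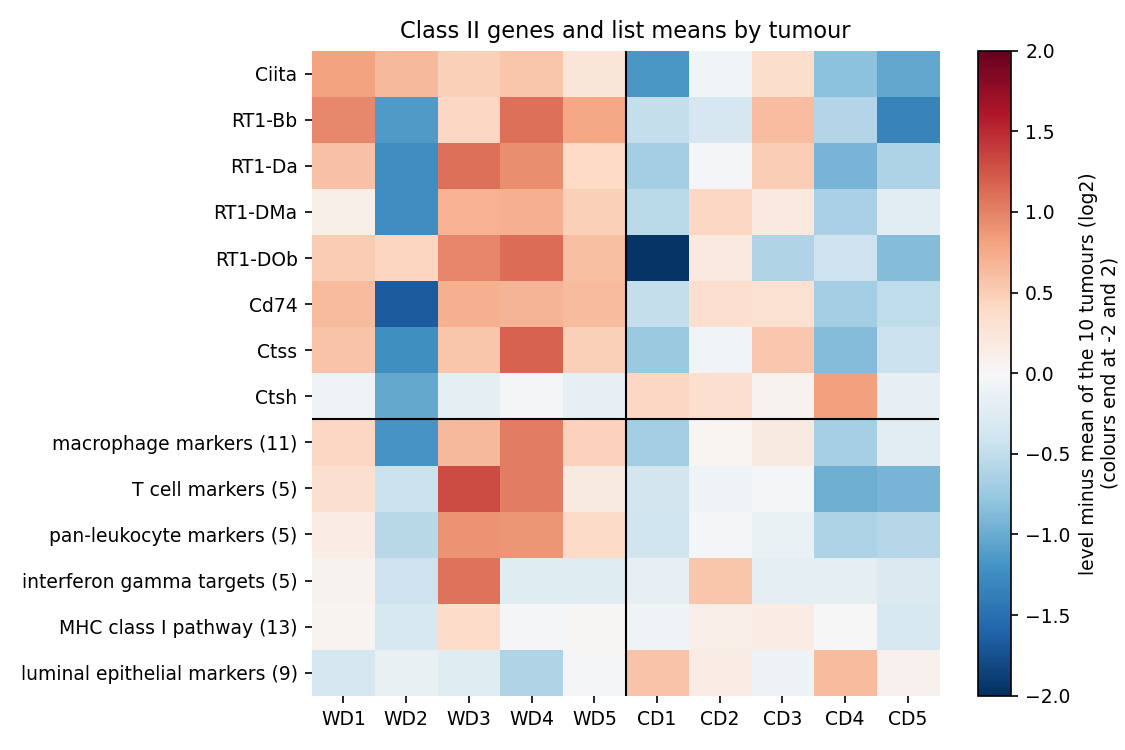
Level of each tested class II gene and mean level of 6 marker lists (number of genes tested in brackets) in each tumour, minus the mean of the 10 tumours (colour, log2), with WD columns on the left and CD columns on the right. The WD2 column is low for 6 of the 8 class II genes and for the macrophage list, at 1.35, and is not low for Ciita.

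The factors that place Ciita at its promoters had a median difference near that of all genes. Of 11 genes of the RFX, NF-Y and CREB complexes and their co-factors 8 were tested, 3 with a positive and 5 with a negative difference, with a median of -0.05. Smarca4, the ATPase of a chromatin remodeller, had a difference of -0.55 (1.46-fold lower; adjusted p = 0.284 in limma) and was the 1 gene of the 8 at an unadjusted p under 0.05, where 15.5% of all genes were. Nfya and Nfyb, subunits of NF-Y, had differences of 0.31 and 0.24, and Rfxap one of -0.15. Rfx5 was well above background on 1 WD and 3 CD arrays and was not tested.

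Genes that act before Ciita had differences on both sides of 0. Of 12 genes of interferon gamma signalling and of other Ciita control 7 were tested, 4 with a positive and 3 with a negative difference, with a median of 0.04 and 0 at an unadjusted p under 0.05. Irf2 had a difference of 0.49 (adjusted p = 0.393 in limma), and Irf1, the interferon-induced activator of Ciita, one of -0.47 (adjusted p = 0.515 in limma). Ifngr1, a chain of the interferon gamma receptor, had a difference of 0.22. Ifng itself was not well above background on any array. Of 12 genes induced by interferon gamma 5 were tested, 4 with a positive difference, with a median of 0.13 and 0 at an unadjusted p under 0.05, and Gbp2, a GTPase, had the smallest p, with a difference of 0.56 (adjusted p = 0.342 in limma).

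The MHC class I pathway, which presents peptides of the cell itself and shares induction by interferon gamma, had a median difference close to 0. Of 16 genes 13 were tested, 7 with a positive and 6 with a negative difference, with a median of 0.04 and 0 at an unadjusted p under 0.05. B2m, the light chain of class I, averaged 8.52 ± 0.59 in WD tumours and 8.49 ± 0.31 in CD tumours (SD, n = 5 each). Calr, a chaperone, had the smallest p, with a difference of 0.36 (adjusted p = 0.515 in limma). The difference between the class I and class II lists was not tested.

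Other genes of class II peptide preparation had differences on both sides of 0. Of 12 genes that prepare protein for class II all 12 were tested, 4 with a positive and 8 with a negative difference, with a median of -0.06. Lgmn, the asparaginyl endopeptidase that begins the cutting of the invariant chain, had a difference of -0.59 (1.51-fold lower; adjusted p = 0.221 in limma), and all 5 WD tumours lay below the CD mean, as for Ctsh. Ifi30, the thiol reductase of lysosomes, had a difference of 0.34 (adjusted p = 0.499 in limma), and Ctsf one of -0.43 (adjusted p = 0.325 in limma). Of 10 genes of class II turnover and co-stimulation 5 were tested, 3 with a positive difference, with a median of 0.35 and 0 at an unadjusted p under 0.05. Cd83, which keeps class II at the surface, had a difference of 0.46 (adjusted p = 0.358 in limma), and Marchf1, the ubiquitin ligase that removes it, one of -0.09.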

How the data were processed

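Spot intensities were deposited as 1 scanner text file per tumour, read with Agilent Feature Extraction 11.5.1.1 per the file headers (per the submitters' processing notes, version 15.5). The deposited intensity used, the processed signal, is background-subtracted and detrended within the array and not scaled between arrays, per the file headers. Marks for well above background, saturation and outlier are 0 or 1 per spot, as deposited. The deposited value table holds log2 values whose ranks matched the median spot signal on each array (Spearman correlation 1) and whose column medians were 6.97 to 6.98. Its scale is thus log2 with nearly equal array medians, and whether the whole distributions were alike was not tested. Its centring per gene is none that could be seen, and how the authors made it is not stated there.

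From these, log2 of the processed signal minus the 75th percentile of each array was taken, outlier spots were left out, and spots of 1 probe were averaged. Probes well above background on at least 5 of 10 arrays were kept (19725), and the probe of highest mean stood for a gene (16764 genes, 8260 with a symbol). Of 41012 probes 17502 were named through RefSeq (GRCr8). The design compared WD with CD over all 10 tumours in limma 3.58.1 (R 4.3.3) with Benjamini-Hochberg adjustment, and a call is an adjusted p under 0.05. Correlations were tested with numpy 2.4.6 in Python 3.11.15. On simulated data of 16764 genes for WD minus CD, 46% of 2-fold and 85% of 4-fold changes were recovered, with 5 false calls of 136. The simulated noise had the spread of each gene, was independent between genes and held no array brightness. Changed genes were drawn at random, and the members had a larger median residual SD (0.71) than all genes (0.34). These shares thus need not hold for the members. The number of arrays limits the precision.

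The members, the 16 gene lists and the tests were chosen with earlier results of these data known. Named were all members with their probes, up to 4 genes of smallest unadjusted p per list, the 5 genes of highest correlation with Cd74 and with Ciita, and the 3 of most negative correlation with Cd74. Genes outside this rule (B cell, dendritic cell and other markers that were not measured, B2m, Ifng, Ifi30, Marchf1) were named after their values were seen, as was the pair of RT1-Bb probes. Alternatives were normexp, quantile normalization, the deposited table, other filters, slide, brightness and replicate number in the fit, the mean over probes, and leaving out each tumour. Normexp (offset 50) ran on the median signal of spot and local background, and the mean signal was not used here.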

Additional observations from a re-analysis of the deposited data

Results flagged for a closer look

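In 3 of 24 groups of 5 tumours, over the 12 member probes, 1 tumour stood far from the other 4 by Dixon's criterion, and it was WD2 each time. Chance gives about 1 in 20 for a single group. The probes share the same tumours and many follow each other, so the 24 groups are not independent. The count of 3 thus cannot be set against that rate. Cd74 was 4.41 in WD2 and 6.70 to 6.79 in the other WD tumours. The dimmer RT1-Da probe (A_44_P367688) was 0.32 in WD2 and 1.62 to 2.07 in the others. Ctsh was 1.98 in WD2 and 2.79 to 2.95 in the others. The same tumour had the lowest mean level of the 11 tested macrophage markers, 1.35, while its array brightness (81.0) lay within the range of the WD arrays. Its part in these levels was not tested.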

How the results depend on the processing

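Under 19 alternatives with a test, 0 genes and 0 members passed the adjusted threshold in limma, and every member kept its direction. The count of members at an unadjusted p under 0.05 was 3 as reported, 0 with normexp (2.94% of all genes), 1 with only probes well above background on all 10 arrays (6 members left; 16.2%), 1 with brightness as a covariate (5.73%) and 2 to 7 when each tumour was left out, the 7 without WD2. The median difference was 0.41 with normexp, 0.34 on the deposited table's values and 0.48 to 1.03 when each tumour was left out. It was -0.28 within slide 1, where Cd74 was -0.85, RT1-Da -0.28, RT1-DMa -0.98 and Ctss -0.28. The count of correlations with Ciita past the adjusted threshold was 1 as reported, 0 without the 2 farthest tumours, 0 centred on diet group, 2 with normexp, 0 with quantile normalization, 0 on the deposited table's values, and 0 to 6 when each tumour was left out (6 without WD2; 0 without CD1, CD4 or CD5). With normexp the correlation with Ciita was -0.404 for Cd74, -0.374 for RT1-Bb, -0.258 for RT1-Da, -0.393 for RT1-DMa and -0.221 for Ctss, and the 2 that passed were RT1-DOb (0.977) and Ctsh (-0.919; adjusted permutation p = 0.000175 for both). The offset of 50 draws dim probes together before the percentile of the array is subtracted, so the normexp values of the dim Ciita probe are no support. The cause of the changed signs was not tested. The replicate block gave 0 genes, 3 members at an unadjusted p under 0.05 (15.9% of all genes) and a median of 0.67, and it changed no call: tumours of the same number had correlations of deviations of -0.017 to 0.160, and 0 of 5 correlated best with their own number, so the numbers do not pair them. Of genes at an unadjusted p under 0.05, 50.3% were higher as reported, 70.4% with normexp, 85.0% without the filter, 43.0% with quantile normalization and 37.3% on the deposited table's values. Dim signal limits Ciita and RT1-DOb, which were well above background on 7 and 5 of 10 arrays.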

Other observations

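A class I gene of the same locus, RT1-CE10 (A_44_P389019), was singled out after its values were seen. Its probe was well above background on 2 arrays, and its level was -4.59, -3.88, -1.47, -3.64 and -4.59 in WD1 to WD5, and -4.44, -1.19, -4.28, -4.95 and -2.35 in CD1 to CD5. The 2 arrays were those of CD2 and CD5, and the values of the other 8 tumours are not measured levels.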
